A study of Mus musculus with 6 samples.

Results

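The LIF, gp130 and STAT3 pathway was followed through 10 genes, taken from a fixed list of symbols and read from every probe that the platform annotation assigns to them. The list holds the ligand Lif, the receptor subunits Lifr and Il6st, the kinases Jak1 and Jak2, the transcription factor Stat3, the inhibitor Socs3, and the targets Pim1, Pim3 and Gbx2. Together they have 19 of the 25697 probes in the table. Of these, 11 probes, covering 8 of the 10 genes, were bright enough to be tested, meaning that 3 or more of the 6 arrays read them above background at a detection p below 0.05. The 8 other probes, which include all those of Jak1 and Pim1, are described by their intensities.

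LIF is a secreted cytokine that binds the LIF receptor, encoded by Lifr, which pairs with the shared subunit gp130, encoded by Il6st. Janus kinases bound to these receptors then phosphorylate STAT3, which dimerizes, enters the nucleus and activates its targets, among them Socs3, whose product feeds back to inhibit the receptor complex. In mouse embryonic stem cells this signal is best known for holding cells in self-renewal, and forced expression of Gbx2 or Pim kinases has been reported to help cells stay undifferentiated.

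The samples were E14 mouse embryonic stem cells, a line of pluripotent cells from the early mouse embryo, profiled on Illumina bead arrays. In 3 samples the cells carried the empty pSuper vector, and in 3 they carried an shRNA against REST, a repressor of neuronal genes; both were taken at 72 h. The labels do not state whether the medium held LIF, whether feeder cells were present, or whether replicates came from separate cultures. The p-values therefore describe the scatter among these 6 samples, part or all of which could be technical.

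Mean array intensities lay between 442 and 473. The only Rest probe was below background on all 6 arrays, so the knockdown could not be checked. All 10 embryonic stem cell markers examined were above background on every array, with summed levels of 87246 to 87992 in control and 84771 to 89429 in knockdown arrays. Most of these sums is Dppa5a (mean log2 level 15.76 in control and 15.74 in knockdown arrays), so they say little of the other markers. Zfp42 rose 1.58-fold (limma adjusted p = 0.00484), while Pou5f1 fell 1.55-fold (0.00362) and Fgf4 2.70-fold (0.000875). The other markers were not called. Among markers of other cells, the summed level of 13 fibroblast genes was 3867 to 4187 in control and 2397 to 2798 in knockdown arrays. Most of it lies in Mmp2, Timp1 and Thy1 (mean log2 level 10.90, 10.22 and 9.09 in control arrays). Of 6 tested members, 4 were lower (Timp1, Mmp2, Twist1 and Acta2), against 13.1% of all tested genes. Thy1 and Pdgfrb were not called. Acta2 kept its call in 6 of 8 other settings with all arrays and in 1 of 6 fits with an array left out. Its second tested probe had a log2 change of 0.23 (limma adjusted p = 0.257). Another 6 members, among them Col1a1, Col3a1 and Dcn, were below background on all arrays. The sums for 10 primitive endoderm genes were 1815 to 1968 and 1493 to 1557, with Gata4, Sox17, Sox7, Foxa2 and Lamb1 below background throughout. Of the 4 tested members, Dab2 was higher (log2 change 0.48), Sparc was lower (-0.73), and Gata6 and Col4a1 were not called. The lower sum lies in Sparc, whose mean log2 level was 10.07 in control and 9.34 in knockdown arrays. For 7 neural genes they were 408 to 418 and 504 to 556, with Map2 higher, Nes lower and Pax6, Sox1, Tubb3 and Dcx below background throughout. The part of these shifts in the results that follow was not tested. In bulk samples, fewer cells of a type and less RNA per cell cannot be told apart.

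In REST shRNA cells the homeobox gene Gbx2 rose 2.24-fold. The receptor gene Lifr was also higher, by an amount that is uncertain because only 1 of 3 control arrays read it above background, while the ligand Lif, the shared subunit Il6st and the feedback inhibitor Socs3 did not pass the test. Of the Stat3 probes 1 of 3, and of the tested Jak2 probes 1 of 2, were lower, by smaller amounts that did not survive every way of processing the arrays. By limma with Benjamini-Hochberg adjustment over all 12406 tested probes (called where the adjusted p was under 0.05), 2 of the 11 member probes rose, 2 fell and 7 were not called. Of the 2 that rose, Lifr passed the filter on dim probes through its knockdown arrays. The called member probes were 36.4% of those tested, against 25.9% of all tested probes, of which 12.8% rose and 13.1% fell. With 11 probes, 1 call more or less moves the share widely. The median log2 change was -0.13 over the member probes and -0.01 over all tested probes. The groups did not overlap for 4 of the 11 member probes, or 36.4%, against 43.3% of all tested probes, so neither count sets the members apart from the array as a whole.

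**Figure D1:**
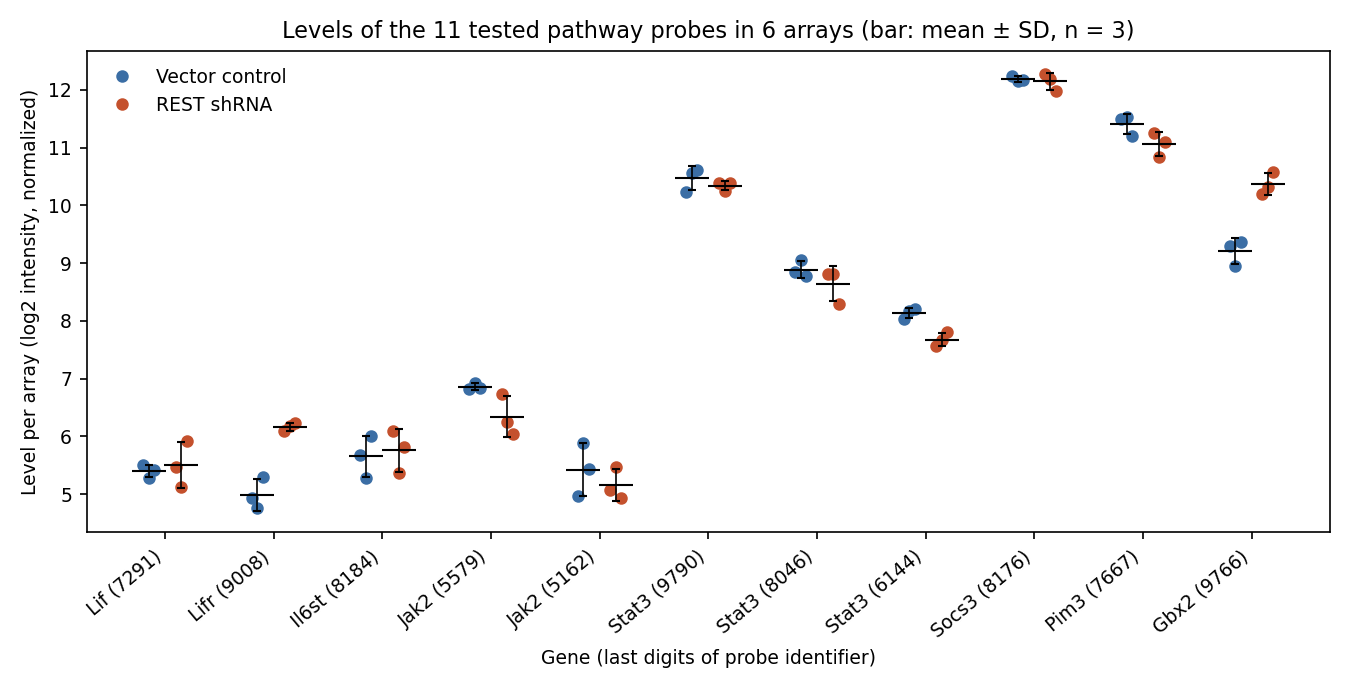
Normalized log2 level of each tested member probe (horizontal axis) in each of the 6 arrays (points), with the mean ± SD of 3 arrays per group (bars). Control and REST shRNA points separate for Lifr, Gbx2, 1 Jak2 probe and 1 Stat3 probe, and overlap for the other 7.

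To show what lies at the start of the genes that rose and of the feedback gene that did not, 300-base windows (250 bases before and 50 after an annotated start, RefSeq, GRCm38.p6) were read for all 10 genes, which have 12 windows in the table used. The STAT motif TTCNNNGAA, which reads the same on both strands, was searched, as were, on both strands, the left part of the REST element, TTCAGCACC, and its right part. The windows of Lifr, Gbx2 and Socs3 follow, 5′ to 3′, with any match to the STAT motif in capitals.

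Lifr, chr15:7129322-7129621 (+): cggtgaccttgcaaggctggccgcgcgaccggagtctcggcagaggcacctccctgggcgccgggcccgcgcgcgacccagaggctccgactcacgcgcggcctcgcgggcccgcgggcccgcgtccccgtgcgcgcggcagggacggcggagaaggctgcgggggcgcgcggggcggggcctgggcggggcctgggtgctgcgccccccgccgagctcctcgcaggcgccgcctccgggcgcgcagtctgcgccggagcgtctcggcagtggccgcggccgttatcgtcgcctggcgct
Lifr, chr15:7140292-7140591 (+): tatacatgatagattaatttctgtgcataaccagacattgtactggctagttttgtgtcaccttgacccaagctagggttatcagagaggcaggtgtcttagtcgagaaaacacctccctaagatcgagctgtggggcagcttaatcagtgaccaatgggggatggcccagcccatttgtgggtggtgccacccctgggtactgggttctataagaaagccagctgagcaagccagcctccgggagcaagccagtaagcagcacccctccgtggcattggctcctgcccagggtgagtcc
Gbx2, chr1:89931127-89931426 (-): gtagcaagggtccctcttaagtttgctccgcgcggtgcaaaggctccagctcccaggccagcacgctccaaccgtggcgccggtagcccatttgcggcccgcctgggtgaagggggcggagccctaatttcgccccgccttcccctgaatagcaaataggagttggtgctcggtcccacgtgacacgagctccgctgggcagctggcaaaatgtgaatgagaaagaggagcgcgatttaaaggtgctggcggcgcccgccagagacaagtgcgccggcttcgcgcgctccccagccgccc
Socs3, chr11:117969317-117969616 (-): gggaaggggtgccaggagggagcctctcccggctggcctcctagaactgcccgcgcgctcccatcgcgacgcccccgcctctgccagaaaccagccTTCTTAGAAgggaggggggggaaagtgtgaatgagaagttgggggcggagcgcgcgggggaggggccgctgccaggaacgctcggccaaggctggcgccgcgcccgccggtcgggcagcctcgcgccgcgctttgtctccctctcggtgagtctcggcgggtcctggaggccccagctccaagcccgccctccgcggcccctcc

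The STAT motif was found in 1 of the 12 windows, that of Socs3 (TTCTTAGAA, starting at position -154 from the start), and in 8.30% of all 32851 windows in the table. Neither part of the REST element was found in any of the 12, against 0.371% of all windows for the left part and 0.137% for the right. These are matches of letters in short windows and say nothing of binding by either factor.

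Lif encodes the ligand, and 1 of its 3 probes was bright enough to test. That probe (ILMN_3137291) read 5.50, 5.29 and 5.41 on the log2 scale in control arrays 1 to 3, and 5.47, 5.12 and 5.92 in knockdown arrays 1 to 3. Knockdown replicate 3 was the highest and knockdown replicate 2 the lowest, so the groups overlapped. The log2 change was 0.10 ± 0.18 (SE, n = 3 per group; limma adjusted p = 0.717), with a 95% interval from -0.31 to 0.52.

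Lifr encodes the LIF receptor subunit, which pairs with gp130. Its tested probe (ILMN_2829008) had deposited intensities of 13.5, 8.3 and 22.1 in the control arrays, where 0 is the background, and of 54.0, 57.3 and 58.6 in the knockdown arrays. On the log2 scale the levels were 4.93, 4.75 and 5.29 in control and 6.09, 6.19 and 6.22 in knockdown cells. Every knockdown array was above every control array, and the knockdown arrays lay close together while the control arrays spread around the limit of detection. The fitted log2 change was 1.18 ± 0.14 (SE, n = 3 per group; limma adjusted p = 0.00110), or 2.26-fold at an offset of 16.

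Lifr met the filter of 3 arrays through all 3 knockdown arrays and 1 control array, so the fitted fold is in part over background and the filter favoured a difference in this direction. The size of the rise also depended on how background was handled. It was 2.11-fold with each array held at no less than its background level, and the log2 change was 0.68 with an offset of 50 in place of 16. Both other Lifr probes were near background. ILMN_1242960 was above it on 1 knockdown array only, with mean intensities of -0.27 ± 1.86 (SD, n = 3) in control and 6.13 ± 8.96 in knockdown cells. ILMN_2829015 was above it on no array. The rise therefore rests on 1 of 3 probes.

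Il6st encodes gp130, the signalling subunit that LIF shares with the other cytokines of the interleukin-6 family. Its only probe read 5.67, 5.29 and 6.001 in control and 6.09, 5.36 and 5.82 in knockdown arrays on the log2 scale. The groups overlapped almost fully, with replicate 2 lowest in each. The log2 change was 0.10 ± 0.22 (SE, n = 3 per group; limma adjusted p = 0.764), and the 95% interval ran from 0.763-fold to 1.51-fold. The difference between the changes of Lifr and Il6st was not tested.

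Jak2, a receptor-bound tyrosine kinase, has 3 probes, of which 2 were tested. ILMN_1245579 read 6.81, 6.93 and 6.84 in control and 6.73, 6.25 and 6.04 in knockdown arrays. All knockdown arrays were below the controls, but knockdown replicate 1 was only just below them. The log2 change was -0.52 ± 0.17 (SE, n = 3 per group; limma adjusted p = 0.0480). This call was lost in 3 of the 9 other settings that kept all 6 arrays, among them the authors' ratios (-0.38, adjusted p = 0.0834) and no filter on dim probes (adjusted p = 0.0860), and without any single array except knockdown replicate 1, whose removal gave -0.72 (adjusted p = 0.0078), while removal of knockdown replicate 3 gave -0.37 (adjusted p = 0.143). The other tested probe (ILMN_3115162), above background on 5 arrays, had a log2 change of -0.27 ± 0.23 (SE, n = 3 per group; limma adjusted p = 0.423).

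Stat3, the transcription factor on which the LIF signal converges, was measured by 3 bright probes that differed in their change. ILMN_3096144 read 8.03, 8.17 and 8.20 in control and 7.57, 7.66 and 7.80 in knockdown arrays, without overlap. It fell by 0.46 ± 0.11 on the log2 scale (SE, n = 3 per group; limma adjusted p = 0.0168). ILMN_2698046 read 8.84, 9.05 and 8.77 in control and 8.82, 8.81 and 8.30 in knockdown arrays, a log2 change of -0.25 ± 0.16 (SE; adjusted p = 0.292). The brightest probe, ILMN_2589790, read 10.23, 10.56 and 10.61 in control and 10.39, 10.25 and 10.39 in knockdown arrays, a log2 change of -0.13 ± 0.13 (SE; adjusted p = 0.502).

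The Stat3 estimates were below 0 at all 3 probes, but that of the brightest probe was 0.01 in the authors' ratios. The 1 call was also lost in the authors' ratios (-0.29, adjusted p = 0.132) and without control replicate 2, knockdown replicate 1 or knockdown replicate 2 (adjusted p = 0.0559, 0.0527 and 0.0522). Which Stat3 transcripts each probe detects is not given in the sources used here, and the difference between probes was not tested.

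**Figure D2:**
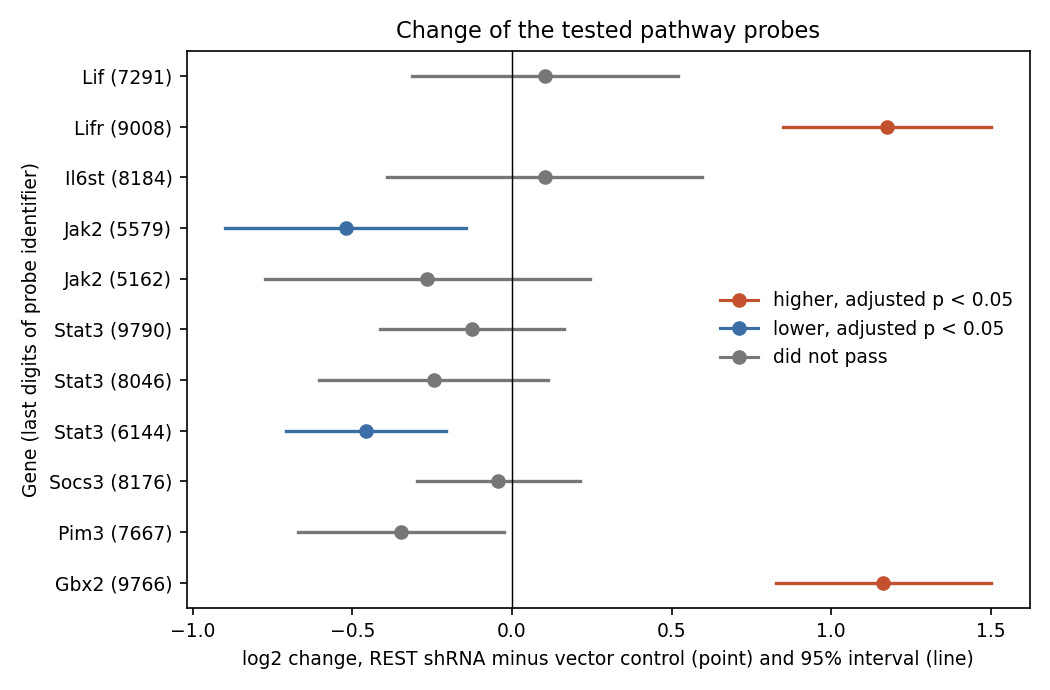
The log2 change of each tested member probe (point, REST shRNA minus vector control) with its 95% interval (line), coloured by the result of the limma test. The intervals of Gbx2 and Lifr lie wholly above 0, but the change of Lifr is in part over background. Those of Lif, Il6st, Socs3, 2 Stat3 probes and 1 Jak2 probe span 0. That of Pim3 lies just below 0, although its adjusted p did not pass.

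Socs3, the feedback inhibitor and a direct STAT3 target, had levels of 12.25, 12.16 and 12.17 in control and 12.27, 12.19 and 11.98 in knockdown arrays. Knockdown replicates 1 and 2 lay within or just above the control range and replicate 3 lay below it. The log2 change was -0.04 ± 0.11 (SE, n = 3 per group; limma adjusted p = 0.807), or 0.04 in the authors' ratios. The 95% interval ran from 0.813-fold to 1.16-fold.

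Pim3, a serine/threonine kinase that promotes survival, read 11.49, 11.54 and 11.20 in control and 11.25, 10.83 and 11.10 in knockdown arrays. Knockdown replicate 1 was above control replicate 3, so the groups overlapped. The log2 change was -0.35 ± 0.14 (SE, n = 3 per group; limma adjusted p = 0.107), and it passed the test only with an offset of 50 (adjusted p = 0.0365) and with a trended robust variance (adjusted p = 0.0087).

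Gbx2, a homeobox transcription factor of the early embryo and hindbrain that also responds to LIF, rose at its only probe. The deposited intensities were 642.7, 449.9 and 627.1 in control and 1164.4, 1251.0 and 1542.1 in knockdown arrays. The normalized log2 levels were 9.30, 8.94 and 9.37 against 10.20, 10.32 and 10.58. All knockdown arrays were well above the controls, and all 6 arrays were far above background. The rise was 2.24-fold (log2 change 1.16 ± 0.15, SE, n = 3 per group; limma adjusted p = 0.00131), with a 95% interval from 1.77-fold to 2.83-fold. It kept its call under each of the 15 other settings tried, with a log2 change between 1.03 and 1.29.

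**Figure D3:**
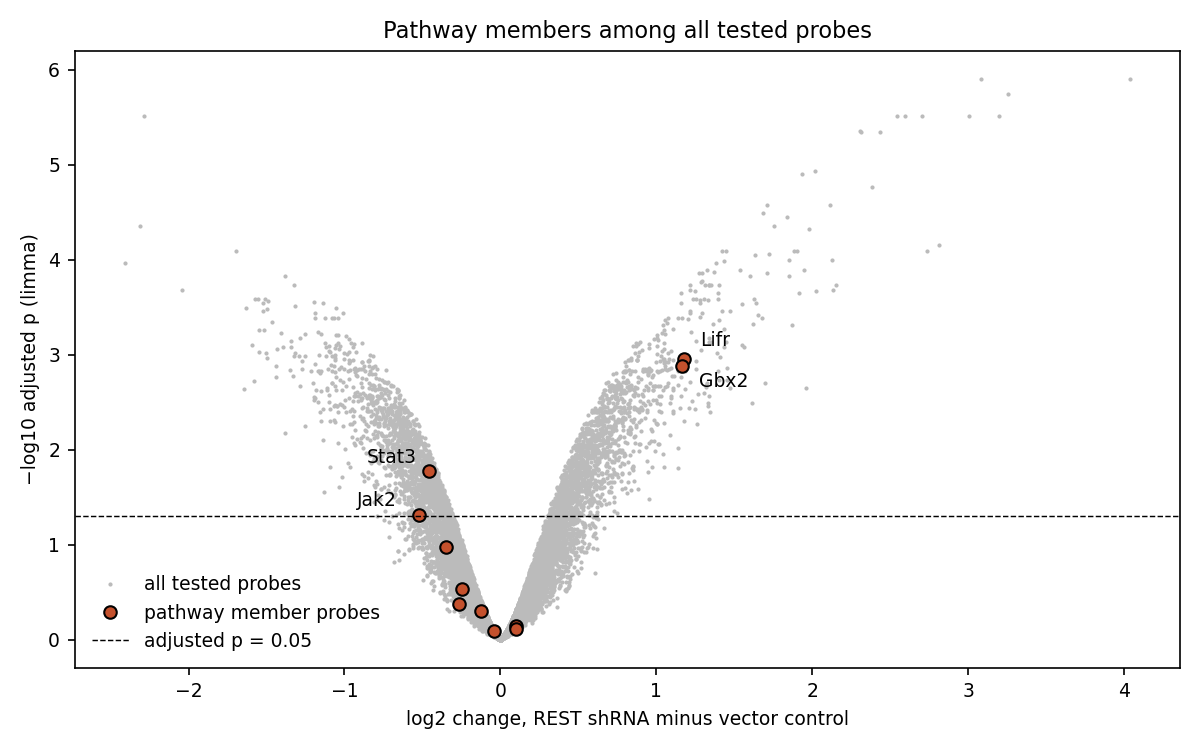
The log2 change (horizontal axis) and the negative log10 of the limma adjusted p (vertical axis) of all 12406 tested probes (grey) and of the 11 member probes (red). Lifr and Gbx2 sit close together on the right, the called Stat3 and Jak2 probes lie near the threshold on the left, and the other 7 lie below it.

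The 8 untested probes read at or near background, and with them all those of Jak1 and Pim1. Jak1, the kinase that gp130 depends on most, had 1 probe with intensities of 11.7, 4.7 and 14.9 in control and 5.6, 7.3 and 6.0 in knockdown arrays, none above background. Pim1, a survival kinase related to Pim3, had a probe (ILMN_2702406) above background in control replicate 1 alone, at 22.7, and a second (ILMN_2932713) above it in knockdown replicate 1 alone, at 15.7. Of the 8 probes, 3 were above background on no array. A probe at background does not show that its gene is silent.

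**Figure D4:**
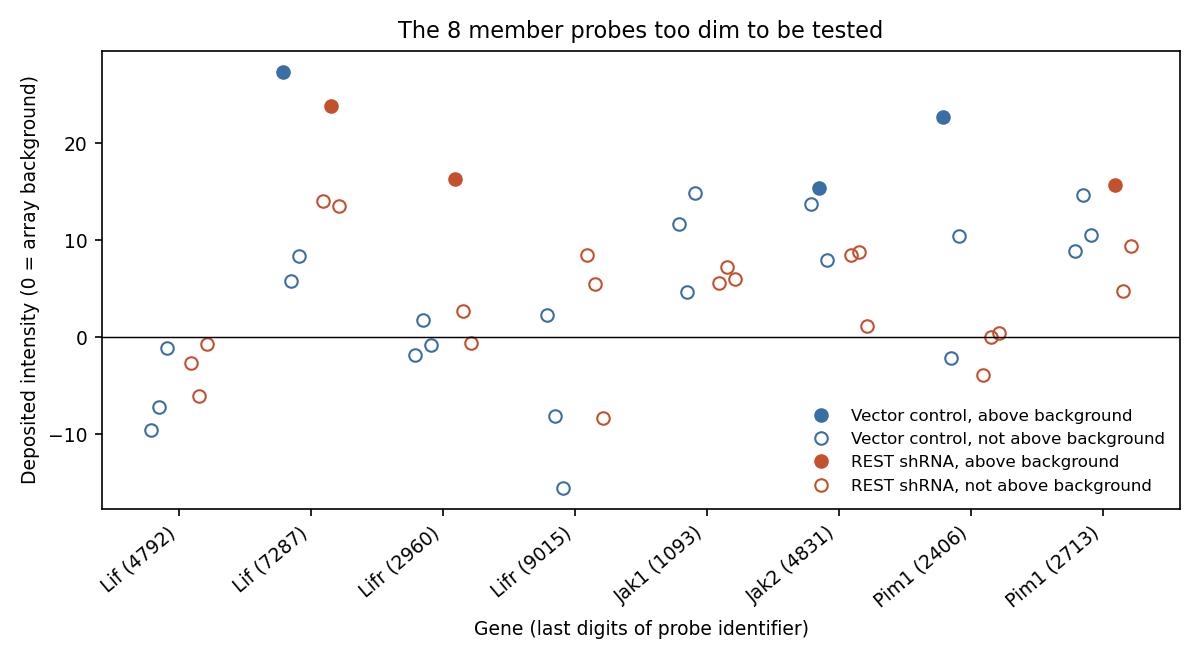
Deposited intensity, where 0 is the background of the array, of the 8 member probes that were not tested, in each array. Filled points were above background and open points were not, and no probe had more than 2 filled points.

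Beyond the members, 58 further genes of the pathway were grouped by role, of which 53 had a probe and 39 were tested. Of these 39, 3 rose (7.69%) and 6 fell (15.4%), against 13.9% and 13.1% of all 8740 tested genes, with a median log2 change of 0.04 against 0.00. Genes of the list thus moved in both directions. The share that fell was near that of the array. The share that rose was smaller, but it rests on 3 genes, and the difference was not tested.

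Among 3 tested ligands of the interleukin-6 family, oncostatin M (Osm), which signals through gp130 as LIF does, fell by 0.51 ± 0.13 on the log2 scale (SE, n = 3 per group; limma adjusted p = 0.0183), and 2 were not called. Its control levels were 6.52, 6.46 and 6.47 and its knockdown levels 5.99, 6.18 and 5.75, without overlap, but the call was lost in the authors' ratios (adjusted p = 0.0703) and without control replicate 1 (0.0529) or knockdown replicate 3 (0.0569). The other receptors gave no call. Osmr, the oncostatin M receptor, had a log2 change of 0.32 ± 0.18 and Il27ra, a partner of gp130 for interleukin-27, one of 0.20 ± 0.13 (SE; adjusted p = 0.231 and 0.302). The other Janus kinases, Tyk2 (0.22 ± 0.13) and Jak3 (0.10 ± 0.13), were not called either.

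Of 4 other STATs tested, Stat4, best known from T cells, rose 1.49-fold (adjusted p = 0.0229), from 7.50 ± 0.28 to 8.07 ± 0.12 (SD, n = 3), and 3 were not called. The Stat4 rise rests on 1 of its 3 probes, the only one bright enough to test. The call was lost without control replicate 2 (adjusted p = 0.0597), knockdown replicate 1 (0.0515) or knockdown replicate 3 (0.0784). Of 11 tested inhibitors, 1 rose (9.09%) and 2 fell (18.2%), against 13.9% and 13.1% of all tested genes. The 3 called were PIAS proteins, SUMO ligases first described as inhibitors of activated STATs. Pias1, of the same family, was not called (log2 change 0.25 ± 0.10, SE, limma adjusted p = 0.103). Pias2 rose 1.47-fold (log2 change 0.56 ± 0.11, SE; adjusted p = 0.00814), whereas Pias4 fell by 0.40 ± 0.11 and Pias3, which binds STAT3, by 0.42 ± 0.13 (adjusted p = 0.0312 and 0.0437). The Pias3 call was lost with any 1 array left out (adjusted p = 0.0538 to 0.134) and that of Pias4 with any except control replicate 3 (0.0550 to 0.102); both were lost in the authors' ratios (0.181 and 0.213). In all, 4 of the 9 other settings that kept all 6 arrays lost the Pias3 call, among them no filter on dim probes (0.0646) and array weights (0.0521). None of the 6 adaptors to the Ras and PI3K branches was called, with Gab1 at 0.29 ± 0.11 and Shc1 at 0.20 ± 0.11 (SE; adjusted p = 0.0851 and 0.227).

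Among 11 tested genes known as targets of LIF or STAT3, 3 fell (27.3%) and 1 rose (9.09%), against 13.1% and 13.9% of all tested genes. The stress-responsive survival gene Ier3 fell by 0.96 ± 0.13 on the log2 scale, from 10.71, 10.78 and 10.51 in control to 9.84, 9.76 and 9.51 in knockdown arrays (SE, n = 3 per group; limma adjusted p = 0.00146). The AP-1 subunit Junb fell by 0.65 ± 0.11 (adjusted p = 0.00442). Its partner Fos fell by 0.74 ± 0.23 (adjusted p = 0.0442), but by 0.44 without knockdown replicate 3, and the call was lost without that array or any of the 3 control replicates (adjusted p = 0.0584 to 0.118), and also with no filter on dim probes (0.0904) and with array weights (0.0545). These 3 are also immediate early genes, which many growth factor signals induce. Klf5, a pluripotency factor named after its values were seen, rose 1.24-fold (adjusted p = 0.0474), a call lost in 2 of the 9 other settings that kept all 6 arrays, among them median scaling (0.0904), and with any 1 array left out (0.0672 to 0.133). Klf4, its best known relative among LIF targets and also chosen after its values were seen, had a log2 change of -0.05 ± 0.12 (SE; adjusted p = 0.781), or 0.09 in the authors' ratios.

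Of the 14 pathway genes with a probe that were too dim to test, 10 were above background on no array. They included the ligands Il6 and Cntf, the receptor Cntfr, and the targets Myc, Pim2 and Pramel7.

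**Figure D5:**
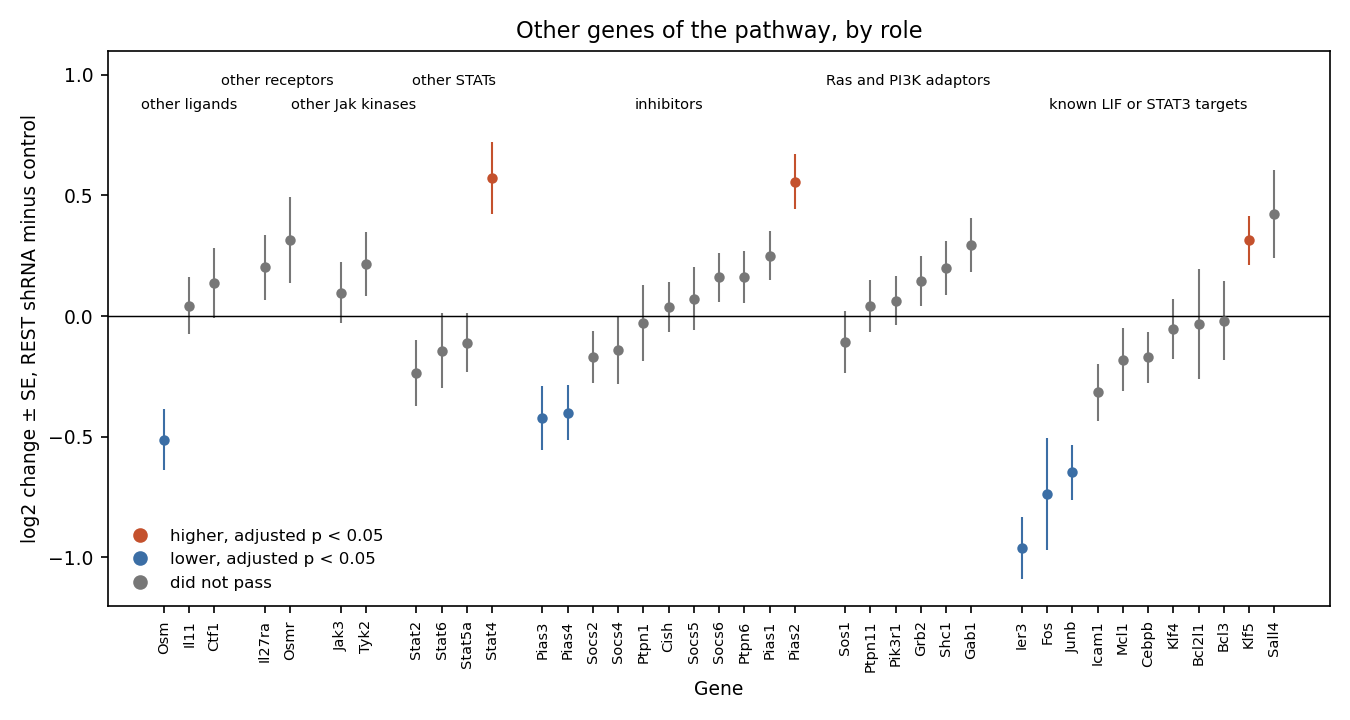
The log2 change ± SE (vertical axis, REST shRNA minus vector control) of the 39 tested pathway genes that are not members, grouped by role. Calls are scattered over 4 of the 7 roles and go both ways, with Ier3 the lowest and Stat4 the highest.

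The genes whose pattern was most like that of Lifr, Gbx2 and Jak2, the members whose brightest tested probe was called, were found by the Euclidean distance between log2 profiles over the 6 arrays, each centred on its mean. Nearest to Lifr were the metalloproteinase Mmp24 (distance 0.114), Zscan4c, a gene of the 2-cell stage that has near-identical copies (0.189), and Ttpal (0.213), with log2 changes of 1.18, 1.26 and 1.08. Nearest to Gbx2 were Eno4 (0.0899), Lrrc15 (0.108) and the zinc finger gene Zfp94 (0.141), with changes of 1.14, 1.14 and 1.08. Nearest to the brightest Jak2 probe were Gm14325 (0.107), the small heat shock protein Hspb8 (0.128) and the intermediate filament gene Des (0.151), with changes of -0.50, -0.59 and -0.61. Gm14325 itself was not called (limma adjusted p = 0.0587). With 2 groups of 3 arrays, a small distance mainly says that the change between groups was of like size.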

How the data were processed

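Each deposited table covers all 6 arrays. The raw table holds a linear intensity per probe, which from the values was centred on each array's background but not scaled between arrays by the authors. Its deposited detection score rises with intensity, and its complement to 1 served as the detection p. A second table holds a linear ratio per probe made by the authors, used here as log2 of the deposited ratio. The software behind both is not given in the sources used here.

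Normal-exponential background correction (limma 3.58.1, R 4.3.3, offset 16) was applied to the intensities, which were then quantile normalized and put on the log2 scale. Of 25697 probes, 23978 had a symbol in the platform annotation. The 12406 probes that 3 or more arrays detected at p below 0.05 were tested with limma, with group as the only term. A gene in the pathway list was represented by its brightest tested probe, whatever its change. A gene below the filter was not tested. The number of arrays limits the precision, and with 3 against 3 an exact permutation test of 1 probe cannot give a p below 0.10.

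The members, gene lists and tests were chosen with earlier results of these data known. Named pathway genes were the 3 called genes of each role with the smallest p, or the 2 genes with the smallest p where none was called. A simulation over 12406 probes gave 100 of them a log2 change of 1 and another 100 a log2 change of 0.5. The fit recovered 76% of the larger and 10% of the smaller changes. Far more probes were called in the real data (25.9%), and the Benjamini-Hochberg cut-off depends on that share. These rates therefore do not give the chance of a call in the real data. No summed level or motif count was tested. Other settings were other background corrections, scalings, filters and variance models, array weights, a block for replicate number, the mean of a gene's probes, and each array left out.

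Replicate numbers are shared by the groups. Deviations of same-numbered arrays from their group means correlated at -0.06, 0.03 and 0.04 over the tested probes, and the numbers were not used to pair samples.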

Additional observations from a re-analysis of the deposited data

How the results depend on the processing

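Gbx2 stayed higher and called under every setting. Lifr did so under every setting that tested it, but it had passed the filter on dim probes through its knockdown arrays. The fits with 1 array left out kept the probes chosen on all 6 arrays, so they do not undo that choice. Lifr was not tested under the stricter filter (p below 0.01 on every array), which left 1 member probe higher. The number of member probes lower was 0 in the authors' ratios, 1 with no filter on dim probes, 1 with the replicate block, and 0 to 1 with 1 array left out, where 2 were higher each time. For the pathway list, 3 genes were lower in the authors' ratios, 5 were higher with an offset of 50 and 7 with a trended robust variance, and with 1 array left out 1 to 2 were higher and 2 to 4 lower. Over all probes, 907 were lower in the authors' ratios, where 70.0% of calls were higher against 49.5% here, and with 1 array left out 1027 to 1355 were higher and 991 to 1368 lower. With the replicate block, 1418 probes were higher and 1463 lower, and the calls of Jak2 (adjusted p = 0.0513), Pias4 (0.0518), Pias3 (0.0778) and Klf5 (0.0827) were lost. Some estimates near 0 changed sign without a call: in the authors' ratios the brightest Stat3 probe (0.011), Socs3 (0.043) and Klf4 (0.093), with array weights Lif (-0.0037), and with 1 array left out Lif (-0.10 to 0.29), Il6st (-0.083 to 0.30), Socs3 (-0.11 to 0.040), Jak3 (-0.026 to 0.17) and Klf4 (-0.14 to 0.029). The cause of these shifts was not tested. Probes near background, above all Lifr, Lif and Il6st, limit what could be measured.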
